A study of Mus musculus with 4 samples.

Results

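The genes described here encode secreted or cell-surface proteins of cartilage that are neither collagens nor the large proteoglycan aggrecan: cartilage oligomeric matrix protein (Comp), the matrilins (Matn1, Matn2, Matn3 and Matn4), the cartilage intermediate layer proteins (Cilp and Cilp2), unique cartilage matrix-associated protein (Ucma), chondroadherin (Chad) and chondromodulin (Cnmd). They were taken by gene symbol, and all 10 were found among the 32286 rows of each count matrix, with at least 1 UMI (unique molecular identifier, which counts a captured mRNA molecule once) in each library. Across cartilage cells Chad, Comp and Cilp were the most abundant. In cells of the vertebral endplate gate Cilp and Cilp2, and by less Matn2, Comp and Chad, were lower and Matn3 and Cnmd higher than in the other cartilage cells, and Ucma, Matn4 and Matn1 did not pass the test. The calls of Matn2, Comp, Chad and Cnmd were each lost in some alternatives. A part of the other cartilage cells had Matn3 and Cnmd at levels like those of the endplate gate.

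The study sorted tdTomato-positive cells from the mouse spine and profiled them as single cells with the 10x Genomics 3′ v3.1 assay. Cells were traced with a Prss56-driven Cre, whose gene is active in boundary cap cells of the embryonic nerve roots, and the vertebrae used, from thoracic 11 to lumbar 2, were chosen for visible tdTomato. The libraries labelled control came from Prss56Cre/+;R26tdTom/tdTom;Nf1+/+ mice and those labelled mutant from Prss56Cre/Cre;R26tdTom/tdTom;Nf1fl/fl mice, with 1 library of each genotype at 3 months and 1 at 12-16 months. The mutant genotype carries 2 Cre alleles and the control 1, so Cre dose and Nf1 genotype cannot be told apart, and how many mice entered a library is not given in the sources used here. Both genotypes carry the tdTomato reporter on both alleles, and cells positive for CD11b, CD31 or CD45 as well as dead cells were gated out before capture.

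Cells with over 750 UMIs and over 500 genes, of which mitochondrial genes took under 7% of the UMIs, were kept, and 1757 passed. All values of the 4 libraries below are given in the order labelled control and labelled mutant at 3 months, then labelled control and labelled mutant at 12-16 months. In that order the libraries held 717, 484, 135 and 421 kept cells, with between 2154537 and 9429264 UMIs per library and a median of 8189 to 12644 UMIs per cell, and no barcode was shared between them. Over all kept cells Nf1 stood at 131, 149.7, 147 and 125 CPM (counts per 1e6 UMIs). It was not lower in the library labelled mutant at 3 months, and a 3′ read does not tell whether a floxed exon was lost, so this level does not check the labels. With 1 library per condition there was no replicate check of a condition and no test between conditions was made; all intervals below cover counting error alone.

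The members were described in 3 gates set by other genes. The endplate gate (Sox9 at 1 UMI or more, Acan at 3 or more, Zfp804b and Dab1 together at 3 or more) held 221 cells, 30, 142, 11 and 38 by library. The other cartilage gate (the same Sox9 and Acan rule with Zfp804b and Dab1 together under 3) held 1065 cells, 532, 235, 78 and 220 by library. The bone/stroma gate (Acan at 2 or fewer, Runx2 at 1 or more) held 194 cells, and 277 cells fell in none. Kcnd2, which the gates did not use, stood at 69.3, 341, 153 and 1054 CPM in the endplate gate and at 2.75, 16.0, 2.01 and 71.9 CPM in other cartilage. It was higher in the endplate gate within every library, while the values overlapped across libraries. This gene was chosen with earlier results of these data known, so it is no independent check of the gate. Endplate cells were also deeper, with medians of 17649, 17605.5, 27015 and 19527 UMIs against 12581, 11380, 10287 and 7614. As cells that should lack cartilage genes, 87 cells with Ptprc UMIs, no Sox9 and at most 2 Acan UMIs served as a blood reference (13, 42, 2 and 30 cells, with medians of 1242, 12018.5, 44781.5 and 8655 UMIs), of which 33 also met the bone/stroma rule.

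Cartilage matrix is built on a network of collagens II, IX and XI that holds aggrecan, and the proteins here mostly tie these parts to each other or to the cell. COMP is a pentamer of the thrombospondin family that binds collagens and is abundant in tissues under load. Matrilins form oligomers through coiled coils and link collagen fibrils with proteoglycans; matrilin-1 and matrilin-3 belong to cartilage, matrilin-2 and matrilin-4 are found more widely. CILP is deposited between the cells of the middle zone of articular cartilage and in the intervertebral disc, CILP2 is its paralog, UCMA (Gla-rich protein) is a small vitamin K-dependent protein of chondrocytes, chondroadherin is a leucine-rich repeat protein that binds collagen and integrins, and chondromodulin is a membrane protein whose cleaved end keeps blood vessels out of cartilage. Mutations of COMP and MATN3 are known causes of multiple epiphyseal dysplasia.

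On GRCm38 with GENCODE M21 genes, all 10 are protein-coding genes at separate loci: Comp (ENSMUSG00000031849) at chr8:70373558-70382066, Matn1 (ENSMUSG00000040533) at chr4:130944385-130955475, Matn2 (ENSMUSG00000022324) at chr15:34306677-34436273, Matn3 (ENSMUSG00000020583) at chr12:8947929-8972028, Matn4 (ENSMUSG00000016995) at chr2:164389393-164405160, Cilp (ENSMUSG00000042254) at chr9:65265180-65280605, Cilp2 (ENSMUSG00000044006) at chr8:69880369-69887687, Ucma (ENSMUSG00000026668) at chr2:4976122-4985748, Chad (ENSMUSG00000039084) at chr11:94565047-94569127 and Cnmd (ENSMUSG00000022025) at chr14:79637690-79662170. Matn4, Cilp2 and Cnmd lie on the minus strand and the others on the plus strand. Matn2, Matn4 and Chad each overlap a gene on the opposite strand (9430069I07Rik, Rbpjl and Acsf2), and a 3′ assay keeps strand.

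The 250 bases before the transcript start are shown for Cilp and Cilp2, the members with the most negative fold changes in the endplate gate against other cartilage, and for Matn3 and Cnmd, the members called higher there, from RefSeq on GRCm38.p6, 5′ to 3′ on the gene's strand. Capitals mark the RUNX hexamer TGTGGT, which reads ACCACA where it lies on the opposite strand. The windows are chr9:65264930-65265179 (plus) for Cilp, chr8:69887393-69887642 (minus) for Cilp2, chr12:8947679-8947928 (plus) for Matn3 and chr14:79662184-79662433 (minus) for Cnmd. The Cilp2 window lies inside the GENCODE gene given above (chr8:69880369-69887687), since RefSeq and GENCODE place the start of Cilp2 differently.
Cilp: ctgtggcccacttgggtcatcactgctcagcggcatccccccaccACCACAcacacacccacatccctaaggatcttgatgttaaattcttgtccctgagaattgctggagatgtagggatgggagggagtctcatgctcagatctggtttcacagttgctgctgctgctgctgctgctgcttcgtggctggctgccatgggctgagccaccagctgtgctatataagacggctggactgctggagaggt
Cilp2: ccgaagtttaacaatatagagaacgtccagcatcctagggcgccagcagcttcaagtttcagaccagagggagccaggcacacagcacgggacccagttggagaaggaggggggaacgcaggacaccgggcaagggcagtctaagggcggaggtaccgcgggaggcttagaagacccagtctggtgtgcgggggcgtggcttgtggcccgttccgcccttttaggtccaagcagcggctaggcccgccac
Matn3: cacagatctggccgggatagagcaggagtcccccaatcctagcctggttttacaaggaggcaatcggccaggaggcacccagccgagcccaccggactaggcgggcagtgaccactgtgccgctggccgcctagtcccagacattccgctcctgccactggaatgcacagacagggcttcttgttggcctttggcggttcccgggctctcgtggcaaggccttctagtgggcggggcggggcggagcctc
Cnmd: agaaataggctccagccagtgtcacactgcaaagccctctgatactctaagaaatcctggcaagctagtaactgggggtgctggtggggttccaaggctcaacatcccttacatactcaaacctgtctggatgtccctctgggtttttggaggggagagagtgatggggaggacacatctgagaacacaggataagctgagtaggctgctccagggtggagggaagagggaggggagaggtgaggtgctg
Of the hexamers searched on both strands, the SOX-type ACAAAG and ACAATG, the RUNX hexamer TGTGGT and the TATA box TATAAA, these 4 windows held a single match, the RUNX hexamer in Cilp from -205 to -200 relative to the start. Among the 9 windows RefSeq gave for 8 of the members, the RUNX hexamer was in 3 (Cilp, Ucma and Matn1) and TATAAA in 1 (Chad, from -28 to -23). Over all 32851 promoter windows of this length, ACAAAG was in 16.5%, ACAATG in 10.7%, TGTGGT in 14.0% and TATAAA in 12.4%. These are descriptions of letters in these windows, and no binding was measured.

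Summed over the members, the 10 genes made up 1.09%, 1.46%, 1.72% and 1.74% of all UMIs in the endplate gate, 2.50%, 2.32%, 1.91% and 2.26% in other cartilage, and 0.0464%, 0.0147%, 0.0244% and 0.0322% in bone/stroma. In the blood reference the share was 0.00223% to 0.00445%. The 3′ assay counts molecules near their end, so levels in CPM were set side by side between genes without a correction for gene length. Whether intronic reads were counted is not given, and an effect of gene length on the order of the genes was not tested. In other cartilage Chad (6642 to 9784 CPM), Comp (4105 to 7259.9) and Cilp (5220.2 to 7113) led and their ranges overlapped, followed by Cnmd (651 to 1659) and Ucma (639.9 to 1382), which overlapped as well. Cilp2 (265 to 408), Matn3 (93.3 to 356) and Matn2 (77.1 to 127) came next, and Matn4 and Matn1 were at or under 12.1 CPM in every library. By median over the libraries the order in the endplate gate was Chad (4037 to 8455), Comp (1847 to 6061), Cnmd (1875 to 3357), Ucma (787 to 1403) and Matn3 (411 to 1476), and Cilp was at 414 CPM or lower. The ranges of neighbours in this order overlapped except for Cnmd and Ucma, and in single libraries the order differed: Cnmd was above Comp in the 3-month library labelled mutant and Matn3 above Ucma in both 12-16-month libraries. Cilp was thus among the leading members in other cartilage and below Matn3 in every library of the endplate gate, whereas the ranges of Chad and of Comp overlapped between the gates.

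**Figure D1:**
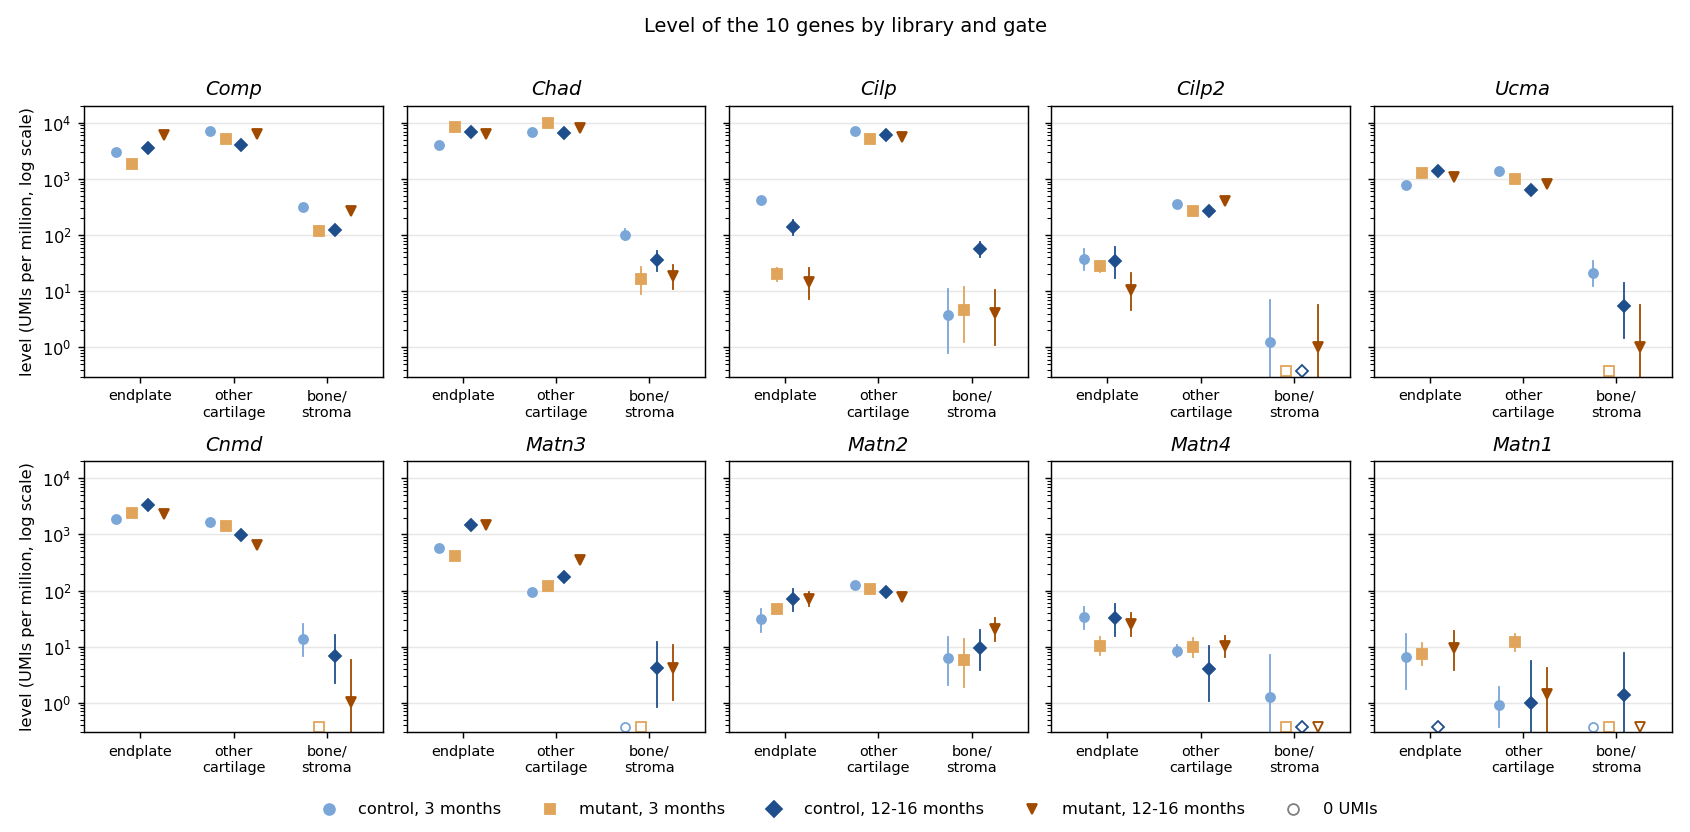
Level of each member in CPM (log axis) in the endplate, other cartilage and bone/stroma gates, 1 point per library with its exact Poisson 95% interval; open symbols at the bottom are libraries with 0 UMIs. Chad and Comp are at 1847 CPM or more in both cartilage gates, Cilp falls from 5220.2 CPM or more in other cartilage to 414 CPM or less in the endplate gate, and Matn3 lies higher in the endplate gate in every library.

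The gates were compared with UMIs summed per library and gate, in edgeR's quasi-likelihood test with the library as a block, and adjusted p-values are Benjamini-Hochberg values over all genes tested. Between endplate and other cartilage, 13.1% of 10252 genes were called higher and 14.7% lower in the endplate gate; of the 10 members, 2 were called higher and 5 lower. The median log2 fold change of the members was -0.19, against -0.02 over all genes. Without TMM scaling the split over all genes turned from 1346 higher and 1508 lower to 2003 and 1109.

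Cilp showed the widest gap. In other cartilage it stood at 7113, 5220.2, 6189.9 and 5690.1 CPM, and 83.6%, 78.3%, 85.9% and 77.7% of the cells held a Cilp UMI. Endplate cells had it at 414, 20.1, 140.0 and 14.7 CPM, in 4, 26, 5 and 8 cells. Every endplate value lay below every other cartilage value, and the log2 fold change was -6.58 ± 0.77 (SE; 95.4-fold lower; edgeR adjusted p = 0.000465). The highest endplate value rested on few cells, since 154 of the 257 UMIs in the 3-month library labelled control came from 1 cell. In the blood reference, Cilp was at 44.5, 5.89, 0 and 13.3 CPM (1, 5, 0 and 4 UMIs), and the endplate level of the 12-16-month library labelled mutant (95% interval 7.35 to 26.3) was not above that. Its paralog Cilp2 followed at a lower level, with 37.1, 27.7, 35.0 and 10.7 CPM in the endplate gate and 358, 265, 266 and 408 CPM in other cartilage. These groups did not overlap either, and Cilp2 was 13.5-fold lower in the endplate gate (log2 fold change -3.75 ± 0.32; edgeR adjusted p = 0.00012).

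Matn2, the matrilin with the wider tissue range, was also lower in the endplate gate, with 30.6, 47.1, 70.0 and 70.9 CPM against 127, 105, 95.6 and 77.1. The groups did not overlap, though the 2 closest values, 70.9 and 77.1, came from the same library, and Matn2 was 2.16-fold lower (log2 fold change -1.11 ± 0.28; edgeR adjusted p = 0.0182). Without the 3-month library labelled mutant the adjusted p was 0.0853, at a log2 fold change of -0.97. Comp stood at 3060.3, 1847, 3624 and 6061 CPM in the endplate gate and 7259.9, 5238, 4105 and 6439 CPM in other cartilage. It was lower in the endplate gate in 4 of 4 libraries while the groups overlapped (1.90-fold lower; log2 fold change -0.93 ± 0.24; edgeR adjusted p = 0.0218). This call was lost without the 3-month library labelled control (log2 fold change -0.76, adjusted p = 0.0777) and without the 3-month library labelled mutant (-0.64, adjusted p = 0.0894).

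Chad, the collagen- and integrin-binding protein, had 4037, 8455, 7023 and 6404 CPM in the endplate gate and 6969, 9784, 6642 and 8205 CPM in other cartilage. It was lower in the endplate gate in 3 of 4 libraries and the groups overlapped (1.40-fold lower; log2 fold change -0.49 ± 0.15; edgeR adjusted p = 0.0402). The call was lost in 6 of 13 alternatives, among them the fits without the 3-month library labelled control (adjusted p = 0.140), without the 3-month library labelled mutant (0.0971) and without the 12-16-month library labelled mutant (0.114).

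Matn3 ran the other way. In the endplate gate it stood at 571, 411, 1476 and 1444 CPM and was found in 60.0%, 69.0%, 90.9% and 86.8% of cells. In other cartilage it stood at 93.3, 119.5, 171 and 356 CPM, in 11.1%, 13.6%, 8.97% and 12.3% of cells, and 55.3% of the UMIs in the 12-16-month library labelled control came from 1 cell. Every endplate value was above every other cartilage value, and Matn3 was 4.59-fold higher in the endplate gate (log2 fold change 2.20 ± 0.22; edgeR adjusted p = 0.000244). No Matn3 UMI was found in the blood reference. A part of the other cartilage cells had Matn3 near or above the endplate level, as given by mark below. Of the 5081 Matn3 UMIs in kept cells, 59.8% were in the 221 endplate cells and 39.4% in other cartilage, whereas 97.9% of Cilp UMIs were in other cartilage.

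Cnmd, the anti-angiogenic membrane protein, stood at 1875, 2442, 3357 and 2333 CPM in the endplate gate and 1659, 1401, 996 and 651 CPM in other cartilage. The groups did not overlap, and Cnmd was 1.96-fold higher in the endplate gate (log2 fold change 0.97 ± 0.27; edgeR adjusted p = 0.0273). The gap was wider in the 12-16-month libraries than in the 3-month libraries, and the call was lost without the 12-16-month library labelled control (log2 fold change 0.75, adjusted p = 0.106), without the one labelled mutant (0.74, adjusted p = 0.114) and with gates set on cells thinned to 5000 UMIs, a fit that used 3 libraries (0.45, adjusted p = 0.155).

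The other 3 members did not pass the test. Ucma had 787, 1305, 1403 and 1074 CPM in the endplate gate and 1382, 1006, 639.9 and 811 CPM in other cartilage, with overlapping groups (log2 fold change 0.11 ± 0.27; edgeR adjusted p = 0.816). Matn4, with 205 UMIs in all kept cells, had 33.9, 10.4, 31.8 and 25.4 CPM in the endplate gate and 8.38, 9.80, 4.02 and 10.4 CPM in other cartilage (log2 fold change 1.19 ± 0.41; edgeR adjusted p = 0.064). Its groups did not overlap, and without the 3-month library labelled mutant it passed (1.76, adjusted p = 0.0129). Matn1, the first matrilin known from cartilage, was nearly absent, with 4, 21, 0 and 7 UMIs in the endplate gate and 7, 37, 1 and 3 in other cartilage, 21 of the 37 from 1 cell.

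Cartilage genes fixed as lists beside the members were read in the same fit. All 6 genes of collagens II, IX and XI were called higher in the endplate gate (median log2 fold change 1.48), from 1.02 for Col2a1 to 2.08 for Col9a1. Of 10 tested genes of aggrecan and the small proteoglycans, a list that holds the gate gene Acan, 2 were higher (Hapln1, the link protein, 0.60 and Epyc 1.17) and 4 lower (Vcan -7.02, Dcn -5.75, Ogn -2.81 and Prelp -0.73). Of 7 tested relatives of the members, Vit (2.20) and Chadl (1.47), the chondroadherin-like gene, were higher and Thbs2 (-6.58) and Vwa1 (-3.80) lower. Of 6 tested small secreted cartilage proteins, Mia (1.79), Scrg1 (0.90) and Mgp (2.40), an inhibitor of calcification, were higher and Clec3a (-1.19) was lower. Matn3 and Cnmd thus moved in the direction of the collagen list, and Cilp, Cilp2 and Matn2 in that of Vcan, Dcn and Ogn.

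To see how the members varied inside cartilage, the 1286 cells of both cartilage gates were divided by marker pairs or groups that hold no member, with a cell marked at 3 or more UMIs. The markers were chosen with earlier results of these data known, among them that Prg4, Smoc2 and Cilp2 went together in a group of cells. The marks are thus no independent division of the cells. Hypertrophy-marked cells (Col10a1, Ihh, Prkg2 and Panx3) numbered 317, surface-marked cells (Prg4, the lubricin gene, and Smoc2) 890, Chrdl2/Meox2-marked cells 210 and Sfrp5/Adamtsl2-marked cells 323; a cell could carry several marks and 96 carried none. Since 145 of the 317 hypertrophy-marked and 12 of the 890 surface-marked cells were endplate cells, these contrasts share cells with the endplate contrast and with each other and are given side by side. By library, 14, 90, 10 and 31 endplate cells carried the hypertrophy mark, but only 3, 12, 0 and 6 endplate cells held a Col10a1 UMI. Most of these marked endplate cells thus met the mark through Ihh, Prkg2 or Panx3 without Col10a1.

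In hypertrophy-marked cells, 9.6% of 10158 genes were called higher and 10.1% lower than in the other cartilage-gated cells; of 9 members tested, 2 were higher and 3 lower (median log2 fold change 0.28 against 0.00 over all genes). Matn3 stood at 376, 434, 1192 and 1164 CPM in marked cells and 68.9, 92.3, 94.8 and 127 CPM in unmarked cells. It was higher in every library with no overlap (7.06-fold; log2 fold change 2.82 ± 0.24; edgeR adjusted p = 0.000774). Cilp stood at 2455, 220.2, 930 and 1851 CPM against 7627, 5120, 6833 and 6520.1 (log2 fold change -2.72; edgeR adjusted p = 0.00975). Cilp2 (-2.13, adjusted p = 0.0094) and Matn2 (-0.90, adjusted p = 0.0109) were lower as well, the former not past the threshold without the 12-16-month library labelled mutant (adjusted p = 0.0611). Cnmd was higher (1.17, adjusted p = 0.0425), a call lost without the 3-month library labelled mutant (0.0628), the 12-16-month library labelled control (0.136) or that labelled mutant (0.192). Comp (-0.20), Chad (0.28), Ucma (0.39) and Matn4 (0.61) did not pass. The 6 collagen genes were higher here too, as were Mia (3.49) and Mgp (2.82).

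Surface-marked cells gave 13.7% of 10371 genes called higher and 15.9% lower, or 1134 higher and 2126 lower without TMM scaling in place of 1425 and 1651; of 9 members tested, 3 were higher and 2 lower (median 0.28 against -0.03 over all genes). Cilp stood at 7792, 6697, 6799 and 7126 CPM in surface-marked cells and 1692, 297, 133 and 33.1 CPM in the rest. Those groups lay far apart (33.9-fold higher; log2 fold change 5.08 ± 0.88; edgeR adjusted p = 0.00449). Cilp2 (3.26, adjusted p = 0.00166) and Matn2 (0.94, adjusted p = 0.00767) were higher too. The direction of Cilp2 was known when this mark was chosen, so it is no independent result. Matn3 stood at 42.0, 26.0, 2.21 and 75.4 CPM against 492, 402, 1561 and 1449, 22.1-fold lower (log2 fold change -4.47; edgeR adjusted p = 0.0027). Cnmd was lower (-1.46, adjusted p = 0.0361), a call lost without the 3-month library labelled mutant (0.0826), the 12-16-month library labelled control (0.129) or that labelled mutant (0.150). Comp (0.70, adjusted p = 0.062) and Matn4 (-1.24, adjusted p = 0.101) did not pass; Comp passed without the 12-16-month library labelled control (0.94, adjusted p = 0.0464) and Matn4 without the 3-month library labelled mutant (-1.84, adjusted p = 0.044). The collagen list was lower in surface-marked cells for 6 of 6 genes, and Dcn (6.07), Vcan (4.09), Ogn (2.70) and Prelp (0.77) were higher.

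The remaining marks moved few members. In Chrdl2/Meox2-marked cells, where 1.01% of 9807 genes were called higher and 2.7% lower, 1 of 9 members was higher and 1 lower (median 0.19 against 0.00 over all genes): Cilp was higher (log2 fold change 1.09; edgeR adjusted p = 0.043) and Matn3 lower (-3.55; adjusted p = 0.00397). The Cilp call was lost without any 1 of 3 libraries (adjusted p = 0.121 without the 3-month library labelled mutant, 0.0544 without the 12-16-month library labelled control and 0.288 without that labelled mutant), and the Matn3 call without the 12-16-month library labelled mutant (adjusted p = 0.0900). In Sfrp5/Adamtsl2-marked cells, where 2.16% of 10452 genes were called higher and 2.65% lower, none of 9 members was higher and 2 were lower (median -0.55 against 0.00 over all genes). There Matn3 was lower (-3.57; adjusted p = 0.00576) and held in 11 of 11 alternatives. Ucma was lower (-0.56; adjusted p = 0.0486) but missed the threshold without each of the 4 libraries in turn (0.0599 to 0.177). Comp (-0.77, adjusted p = 0.0578) and Cnmd (-1.13, adjusted p = 0.0728) did not pass.

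**Figure D2:**
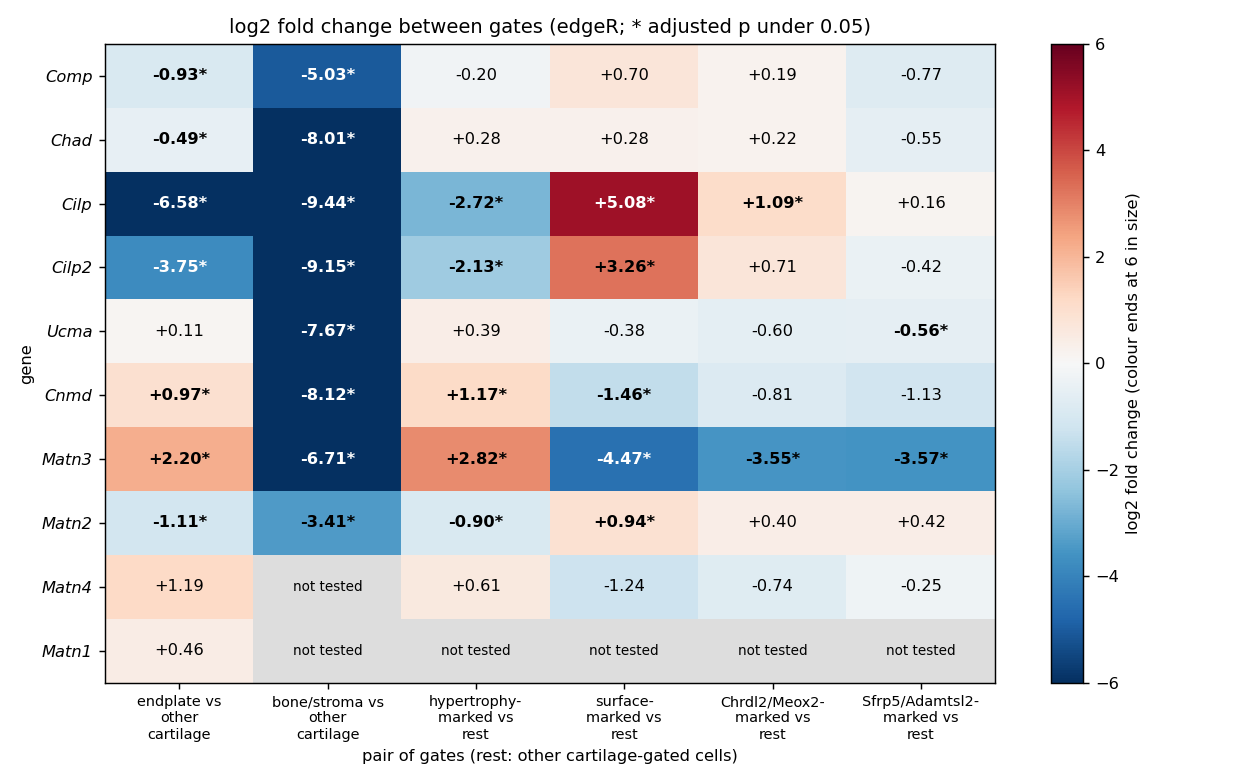
Log2 fold change of each member (rows) in the 6 contrasts of gates and marks (columns), with the colour scale ending at 6 in either direction and an asterisk for an edgeR adjusted p under 0.05. Matn3 is higher in the endplate and hypertrophy-marked columns and lower in the other columns, Cilp has the reverse sign in the endplate, hypertrophy-marked and surface-marked columns, and all tested members are lower in bone/stroma.

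Within the other cartilage gate, too, Matn3 was higher in hypertrophy-marked cells and Cilp in surface-marked cells than in the rest of the gate. There Matn3 stood at 286, 324, 945 and 877 CPM in hypertrophy-marked cells and at 56.2, 49.9, 2.45 and 62.8 CPM in the others. In the endplate gate it stood at 656, 476, 1346 and 1497 CPM in hypertrophy-marked cells and 425, 225, 2844 and 1068 CPM in the others, the 2844 from 1 cell. In other cartilage cells without the surface mark (87, 61, 6 and 33 cells) Matn3 stood at 415, 341, 1855 and 1371 CPM. The whole endplate gate had it at 571, 411, 1476 and 1444 CPM. Cnmd stood at 1629, 1966, 4782 and 1769 CPM in those other cartilage cells and at 1875, 2442, 3357 and 2333 CPM in the endplate gate. Levels of this size were thus not particular to the endplate gate. Cilp in other cartilage stood at 7839, 7113, 6799 and 7264 CPM in surface-marked cells and at 2569, 1086, 110 and 64.9 CPM in the rest. By the hypertrophy mark it stood there at 3154, 739, 2182 and 3431 CPM in marked cells and 7874, 6747, 7063 and 6964 CPM in the others. Hypertrophy-marked cells of this gate thus had more Cilp than Matn3 in every library. The 3 surface-marked endplate cells of the 3-month library labelled control held 255 of that gate's 257 Cilp UMIs. Endplate Cilp showed no single side by the hypertrophy mark, at 258, 23.8, 153 and 10.7 CPM in marked cells and 683, 9.62, 0 and 43.2 CPM in the others.

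Counted cell by cell with 3 or more UMIs as the limit, 825 of the 1286 cartilage-gated cells held Cilp, 215 held Matn3, 27 held both and 273 held neither. By library, 18 of 427 Cilp cells also held Matn3 in the 3-month library labelled control, 3 of 176 in that labelled mutant, 2 of 63 in the 12-16-month library labelled control and 4 of 159 in that labelled mutant. Matn3 cells numbered 54, 94, 12 and 55 by library, so in the 3-month library labelled control 18 of 54 Matn3 cells also held Cilp. If the 2 genes were independent, 41.0, 43.9, 8.49 and 33.9 cells would hold both. Cells with both were fewer than that in each library. Of the 27, 5 were among the cells called doublets (34, 30, 9 and 34 of the kept cells by library). Their part in the overlap was not tested.

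**Figure D3:**
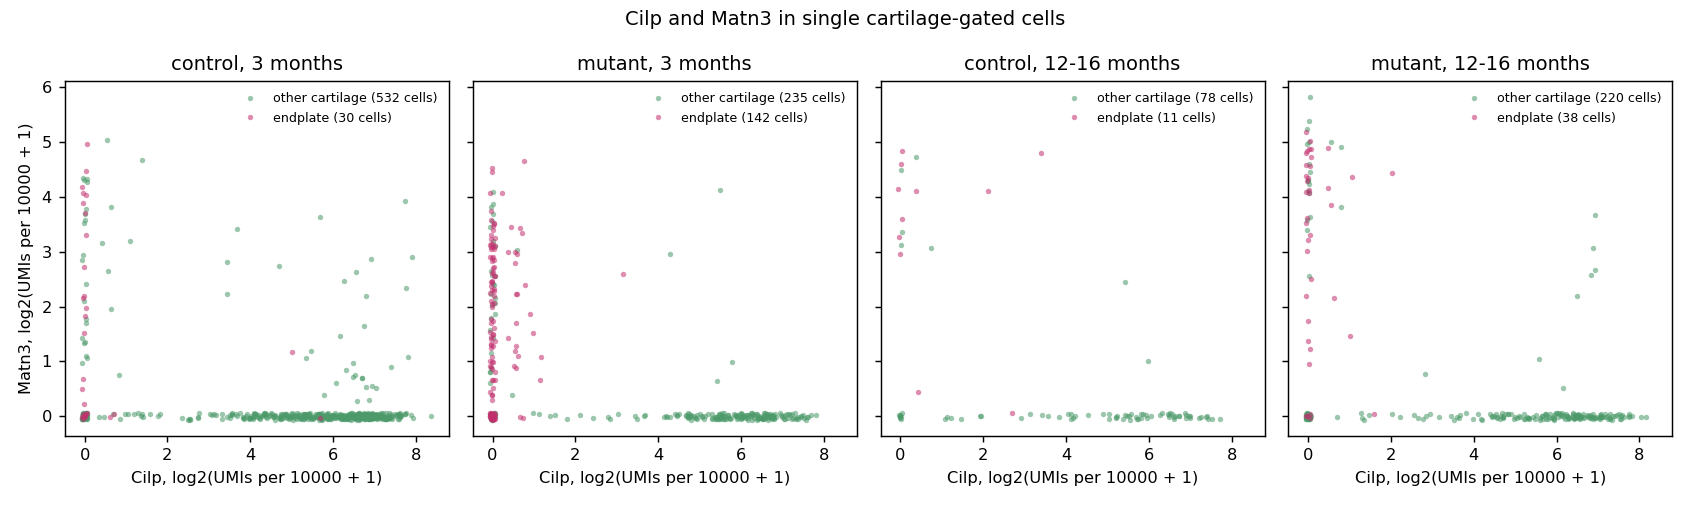
Cilp against Matn3 in each cartilage-gated cell, 1 panel per library, both axes as log2(UMIs per 10000 + 1) with a slight jitter and points coloured by gate. Most cells lie along one axis or the other, with endplate cells along the Matn3 axis; 27 of 1286 cells held 3 or more UMIs of both.

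Correlations of log-scaled levels over cartilage-gated cells were computed within each library and averaged over the 4, over 9191 genes found in at least 10% of these cells. Cells of a library share its depth and free RNA, so the values are a description. Cilp and Matn3 correlated at -0.49 (-0.544 to -0.329 over the libraries). The genes most like Matn3 were Col9a1 (0.77), Unc5c (0.76) and Mia (0.70), and those most like Cilp were Abi3bp (0.74), Gas1 (0.69) and Htra1 (0.65). Cilp2 was most like Cilp (0.55) and Fibin (0.55). Cnmd was most like collagen IX genes (Col9a2 0.57, Col9a3 0.56, Col9a1 0.50) and also followed Matn3 (0.49). Comp and Chad were each other's closest gene (0.59), Comp followed Cilp less closely (0.34), Ucma was closest to Sparc (0.39) and Cnmd (0.37), and Matn2 to Pros1 (0.30) and Col15a1 (0.30). Matn1 (found in 2.64% of the cells) and Matn4 (8.94%) fell under the 10% limit.

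**Figure D4:**
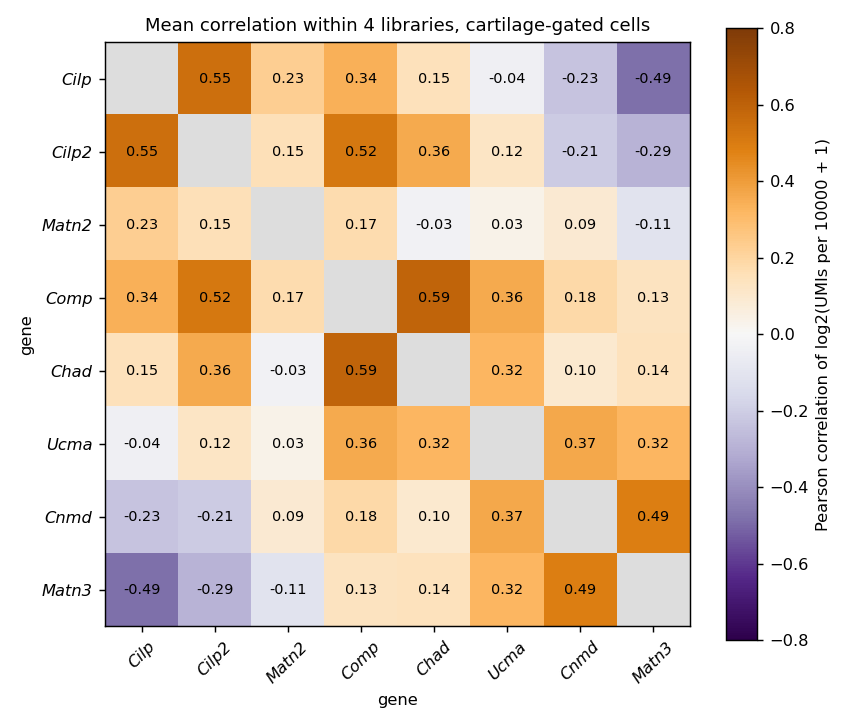
Mean within-library Pearson correlation between the 8 members found in at least 10% of cartilage-gated cells. Comp and Chad (0.59), Cilp and Cilp2 (0.55), Comp and Cilp2 (0.52) and Matn3 and Cnmd (0.49) are the closest pairs shown, and Cilp and Matn3 are the most opposed (-0.49).

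Against other cartilage, the bone/stroma gate had 13.3% of 9249 genes called higher and 15.5% lower (1585 and 1136 genes without TMM scaling, 1232 and 1429 with it), and 8 of 8 tested members were lower, with a median log2 fold change of -7.84 against 0.02 over all genes. Matn1 and Matn4 had too few UMIs to test. Cilp stood at 3.80, 4.64, 56.2 and 4.13 CPM and was 694-fold lower (log2 fold change -9.44 ± 0.92; edgeR adjusted p = 0.000336). Matn3 had 0 UMIs in both 3-month libraries, which allows up to 3.80 and 3.48 CPM, and 4.12 and 4.13 CPM at 12-16 months (log2 fold change -6.71 ± 0.51; adjusted p = 0.000137). Cilp2 (-9.15), Cnmd (-8.12), Chad (-8.01) and Ucma (-7.67) fell between these. Matn2, at 6.33, 5.80, 9.60 and 20.6 CPM, was 10.6-fold lower (-3.41 ± 0.41; adjusted p = 0.000776). Of the partner lists, 4 of 6 collagen genes, 8 of 10 genes of aggrecan and the small proteoglycans, 4 of 6 relatives and 6 of 6 small secreted proteins tested were lower in bone/stroma, and none was higher. The 8 include the gate gene Acan, whose direction was set by the gates (at most 2 UMIs against 3 or more) and is not a result.

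Comp kept the highest level of the members in bone/stroma, at 314, 121, 125 and 271 CPM, 32.7-fold below other cartilage (log2 fold change -5.03 ± 0.36, edgeR adjusted p = 0.000116). In the 277 cells of no gate it did not stand out, with Comp at 809 to 1496 CPM, Chad at 761 to 1807 and Cilp at 330 to 2010. The blood reference held 0, 6, 1 and 7 Comp UMIs, or 0, 7.07, 11.2 and 23.2 CPM, below the bone/stroma level in each library. The 0 in the 3-month library labelled control rested on 22477 UMIs and allows up to 133 CPM. In the 12-16-month library labelled control both reference cells held Runx2 and were themselves bone/stroma cells. Their marrow stroma marker list summed to 9558 CPM, so there the reference was a part of the gate it was set against. The 5 genes of the cartilage marker list summed to 713, 54.5, 791 and 289 CPM in bone/stroma, which did not follow the order of Comp (Comp was at 125 CPM where the list was highest); their part in the Comp level was not tested. Chad in bone/stroma was at 101, 16.2, 35.7 and 18.6 CPM, with 0, 10, 0 and 2 UMIs in the blood reference. In the 3-month library labelled mutant, 24 of the 39 bone/stroma cells also held Ptprc, Cdh5 or Acta2 UMIs, 23 of them Ptprc. The summed level of the immune marker list in that gate was 913 CPM there and 3.80, 93.3 and 152 CPM in the other libraries, and that of the bone marker list 8512 CPM against 81089, 135830 and 44412. Without such cells Comp stood at 581 CPM (95% interval 473 to 706, 15 cells) in that library and 323 CPM in the 3-month library labelled control. Of the 101 Comp UMIs behind the 581 CPM, 42 came from 1 cell.

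The libraries labelled mutant and control were set side by side within each gate as the ratio of CPM values, with an exact 95% counting interval, for genes with at least 100 UMIs over both libraries; a ratio of 1.5-fold or more either way was counted. At 3 months in the endplate gate, 16.7% of 5246 genes were past this fold higher and 12.8% lower in the library labelled mutant, and 3 of 8 members were higher and 2 lower. Chad was 2.09-fold (2.01 to 2.18) and Ucma 1.66-fold (1.51 to 1.83) the level of the library labelled control. Matn2 was at a ratio of 1.54 with an interval that held 1 (0.946 to 2.63). Comp was at 0.604 (0.573 to 0.637) and Cilp at 0.0486 (0.0357 to 0.065). The Cilp ratio rested on the few endplate cells of the library labelled control named above, and it was 2.72 without called doublets and 5.29 in thinned cells. When cells with any of the 4 marks were left out, which kept 10 control and 27 mutant endplate cells, the Comp and Matn2 ratios were both 0.949. Comp also lay within the fold without called doublets (0.694) and in thinned cells (0.759). Cnmd (1.30), Cilp2 (0.746) and Matn3 (0.720) stayed within the fold, but none kept its side of 1 in every alternative. Without marked cells Cnmd was at 0.911, Matn3 at 1.66 and Cilp2 at 6.98, and Cilp2 was at 3.73 without called doublets and 1.88 in thinned cells. Of the kept cells at 3 months, 4.18% under the control label and 29.3% under the mutant label were in the endplate gate, and the part of this difference in these ratios was not tested.

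At 12-16 months in the endplate gate, where the library labelled control held 11 cells, 13.5% of 1789 genes were past the fold higher and 8.83% lower. Of 5 members, Comp alone passed, at 1.67 (1.57 to 1.79), opposite to its 3-month ratio. Matn3 (0.978), Chad (0.912), Ucma (0.766) and Cnmd (0.695) stayed within the fold.

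In other cartilage at 3 months, 9.18% of 8841 genes were past the fold higher and 9.33% lower. In the main values none of 8 members was past it, but 1 was higher and 3 lower in thinned cells, and 1 higher and 2 lower without marked cells. The main ratios of the members were 0.722 for Comp, 0.728 for Ucma, 0.734 for Cilp and 0.742 for Cilp2. Matn2 was at 0.827, Cnmd at 0.844, Matn3 at 1.28 and Chad at 1.40. Without marked cells Ucma was at 1.16, Cnmd at 1.42 and Matn3 at 0.822. At 12-16 months, 6.84% of 4563 genes were higher and 6.68% lower, and 3 of 8 members were higher and 1 lower in the library labelled mutant. Matn3 was at 2.08 (1.76 to 2.48), Comp at 1.57 (1.51 to 1.62) and Cilp2 at 1.54 (1.34 to 1.77), while Cnmd was at 0.654 (0.602 to 0.710). Cnmd lay within the fold with TMM scaling (0.695), without called doublets (0.674), in cells with at least 5000 UMIs (0.687) and in thinned cells (0.678). With every cell given equal weight it was at 0.519. Matn3 was within the fold in thinned cells (1.39). Hypertrophy-marked cells, 10 of 78 under the control label and 49 of 220 under the mutant label, held 168 of 170 and 669 of 754 Matn3 UMIs of this gate. In those marked cells Matn3 stood at 945 CPM under the control label and 877 CPM under the mutant label. The part of the differing share of marked cells in the Matn3 ratio was not tested. In the library labelled control 55.3% of the Matn3 UMIs came from 1 cell, as given above; without the cell richest in Matn3 in each library, a choice made after seeing the data, the Matn3 ratio was 4.03. Chad (1.24), Ucma (1.27), Cilp (0.919) and Matn2 (0.806) stayed within the fold.

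**Figure D5:**
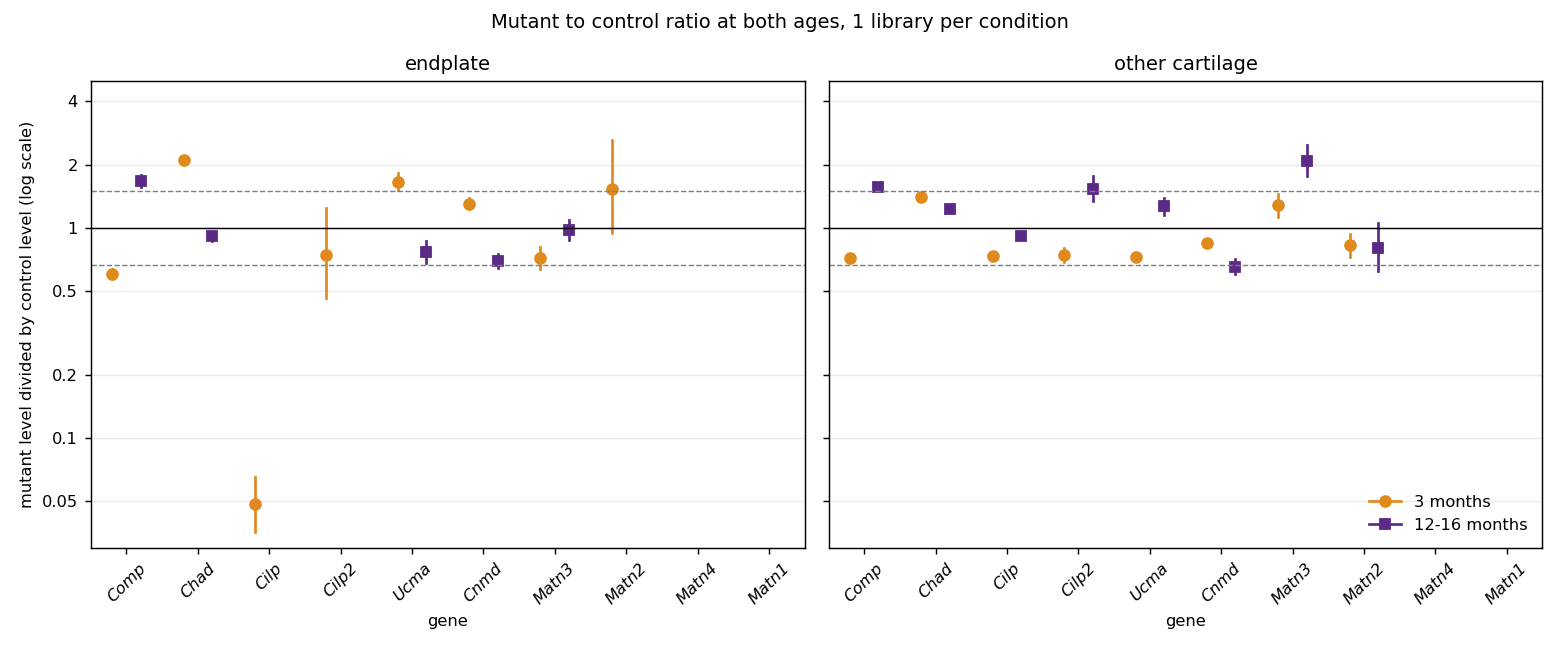
Ratio of the levels under the mutant and control labels, mutant over control (log axis), for each member at 3 and at 12-16 months, in the endplate and other cartilage gates, with exact 95% counting intervals and dashed lines at 1.5-fold; genes with too few UMIs have no point. Comp lies below 1 at 3 months (0.604 and 0.722) and above 1 at 12-16 months (1.67 and 1.57) in both gates.

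Between ages, the comparisons use the same 4 libraries again. Among the libraries labelled control, 12.4% of 1577 genes were past the fold higher at 12-16 months and 16.7% lower in the endplate gate, and 9.25% of 8204 higher and 9.14% lower in other cartilage. Of 6 members in the endplate gate, 4 were higher, Matn3 at 2.59 (2.25 to 2.98), Cnmd at 1.79 (1.65 to 1.95), Ucma at 1.78 (1.56 to 2.03) and Chad at 1.74 (1.64 to 1.84), and Cilp was lower at 0.338 (0.240 to 0.467). That Cilp ratio was 22.4 without called doublets. In other cartilage 1 of 8 members was higher, Matn3 at 1.83 (1.54 to 2.17), and 3 were lower, Comp at 0.565 (0.548 to 0.584), Cnmd at 0.600 (0.562 to 0.640) and Ucma at 0.463 (0.427 to 0.502). The Cnmd ratio was 0.954 in thinned cells. The Matn3 ratio rested on 1 cell, being 0.936 without the cell richest in Matn3 in each library (84.8 CPM at 3 months and 79.4 CPM at 12-16 months), and the share of cells with a Matn3 UMI was 11.1% at 3 months and 8.97% at 12-16 months.

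Among the libraries labelled mutant, 13.8% of 5402 genes were past the fold higher at 12-16 months and 15.9% lower in the endplate gate, and 6.91% of 6455 higher and 8.33% lower in other cartilage. Of 6 endplate members, 3 were higher, Matn3 at 3.52 (3.23 to 3.82), Comp at 3.28 (3.15 to 3.42) and Matn2 at 1.51 (1.07 to 2.09). Matn2 lay within the fold with TMM scaling (1.40), with every cell given equal weight (1.19) and in thinned cells (1.17). In other cartilage 2 of 8 were higher, Matn3 at 2.98 (2.63 to 3.39) and Cilp2 at 1.54 (1.40 to 1.70), and Cnmd was lower at 0.465 (0.437 to 0.494). Comp (1.23) and Cilp (1.09) stayed within the fold but were at 0.569 and 0.171 without marked cells. In that setting 7 of 8 members were past the fold lower and Matn3 higher, and no Cilp2 UMI was left at 12-16 months. It rested on few cells, since 10 cartilage-gated cells of the 12-16-month library carried no mark, 3 of them endplate cells. The share of other cartilage cells with a Cnmd UMI was 94.5%, 92.3%, 78.2% and 57.7%, and expected at 88.2%, 83.2%, 63.8% and 42.4% with each cell at 3000 UMIs. Matn3 was thus past the fold higher at 12-16 months under both labels in the endplate gate and under the mutant label in other cartilage, whereas under the control label in other cartilage that turned without 1 cell. Cnmd was past the fold lower under both labels in other cartilage, for the control label not in thinned cells. By library, surface-marked cells of this gate had Cnmd at 1664, 1142, 617 and 338 CPM. Cells of the gate without that mark (87, 61, 6 and 33 cells) had it at 1629, 1966, 4782 and 1769 CPM, so the fall was not shared by all cells of the gate. The part of the differing share of surface-marked cells in the Cnmd ratios was not tested.

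In bone/stroma, Comp in the library labelled mutant was at 0.384 (0.302 to 0.485) of the level labelled control at 3 months and at 2.17 (1.71 to 2.79) at 12-16 months. Without cells holding Ptprc, Cdh5 or Acta2 UMIs, a choice made after seeing the data, the 3-month ratio was 1.80. With every cell given equal weight the 12-16-month ratio was 0.471, so neither direction held in every alternative.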

How the data were processed

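Single cells of 4 libraries were read from the deposited raw UMI counts per gene and barcode, which the authors made with Cell Ranger 8.0.0 on mm10 with a tdTomato sequence added; whether intronic reads were counted is not given in the sources used here. The deposited counts were not corrected for free RNA, and no such correction was made here. Cells were kept by the filters given above, gates were set on raw UMIs, and levels are CPM of UMIs summed per library and gate with exact Poisson 95% intervals; a count of 0 allows 3 counts. Doublets were scored with Scrublet (scanpy 1.11.5) and called at the score step nearest a 6% rate, since its automatic threshold was not used, and kept in the main values.

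Gates were compared with edgeR 4.0.16 in R 4.3.3 (filterByExpr, TMM, quasi-likelihood test, library as block, threshold 0.05), after tests on simulated counts. The libraries are of 4 conditions, so the p-values measure how evenly a gate difference recurred across them. Alternatives were DESeq2 1.42.0, no TMM, no filter, thinned or deeper cells, at most 30 cells, other gate thresholds, no doublets and each library left out. Ratios between conditions carry exact conditional binomial intervals. Correlations used log2(UMIs per 10000 + 1), with the 3 closest genes of a member named. The named genes are the members, the gate and marker genes, lists of 32 cartilage genes and those closest genes. Members, marker genes and lists were chosen with earlier results of these data known. Scripts ran in Python 3.11.15 with numpy 2.4.6, scipy 1.17.1, pandas 2.3.3 and matplotlib 3.10.9.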

Additional observations from a re-analysis of the deposited data

Results flagged for a closer look

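For 5 members the ratio of the levels under the mutant and control labels lay on opposite sides of 1 at 3 and at 12-16 months, with counting intervals that left out 1. The difference between the ages was not tested. How many of all genes turned in this way was not counted, and counting intervals are narrow for abundant genes, so the 5 are not a result about the members. Comp went from 0.604 to 1.67 in the endplate gate, from 0.722 to 1.57 in other cartilage and from 0.384 to 2.17 in bone/stroma, but in bone/stroma the 3-month ratio was 1.80 without cells holding Ptprc, Cdh5 or Acta2 UMIs and the 12-16-month ratio 0.471 with equal weight for each cell. The 3-month endplate ratio of Comp was 0.694 without called doublets, 0.759 in thinned cells and 0.949 without marked cells. In the endplate gate the change ran the other way for Ucma, from 1.66 to 0.766, for Chad, from 2.09 to 0.912, and for Cnmd, from 1.30 to 0.695, although Cnmd was at 0.911 at 3 months without marked cells. In other cartilage Cilp2 went from 0.742 to 1.54 and Ucma from 0.728 to 1.27, but without marked cells Ucma was at 1.16 at 3 months, on the same side as at 12-16 months.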

How the results depend on the processing

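Of the fold changes of members between gates under an alternative, 538 kept direction and side of the threshold. Another 32 lost the call, 26 gained it and 12 turned in sign. Of the ratios between conditions, 253 stayed within counting error and 131 moved outside it. Crossings of 1 numbered 11 among ratios past 1.5-fold and 16 among the others. Cilp, Cilp2 and Matn3 between endplate and other cartilage were called in the same direction in 13 of 13 alternatives. No paired analysis was possible because each condition has 1 library; the library was a block in each gate contrast. The cause of the changes below was not tested, other than fewer cells, genes or libraries where the alternative itself removes them.

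With thinned cells, genes called higher and lower numbered 483 and 740 for endplate and 461 and 541 for hypertrophy-marked cells. With at most 30 cells per library and gate they numbered 607 and 615 for endplate, 801 and 919 for bone/stroma, 531 and 516 for hypertrophy-marked, 538 and 485 for surface-marked and 107 and 127 for Sfrp5/Adamtsl2-marked cells, and 163 higher for Chrdl2/Meox2-marked cells. With no filter they numbered 2227 and 2174 for bone/stroma, 386 and 638 for Chrdl2/Meox2-marked and 447 and 839 for Sfrp5/Adamtsl2-marked cells, and 1694 lower for hypertrophy-marked cells. Leaving out each library in turn gave 956 to 1376 genes lower for endplate, 262 to 851 higher and 106 to 1067 lower for hypertrophy-marked, 716 to 1367 higher and 878 to 1482 lower for surface-marked, 8 to 215 higher and 80 to 337 lower for Chrdl2/Meox2-marked and 62 to 199 higher and 149 to 247 lower for Sfrp5/Adamtsl2-marked cells. The lowest of these came without the 3-month library labelled mutant for endplate and surface-marked cells and without the 12-16-month library labelled mutant for the others. Genes past 1.5-fold without marked cells numbered 1433 higher and 1225 lower for mutant against control at 3 months in the endplate gate, 2030 and 2298 in other cartilage, and 1732 and 2359 with age among mutant other cartilage. With TMM scaling, control other cartilage gave 492 and 1168 with age.

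Uncalled log2 fold changes that turned were those of Ucma in the endplate gate (-0.27 with thinned cells, -0.11 with 6 or more Zfp804b and Dab1 UMIs, -0.18 to 0.46 leaving out each library) and Matn1 there (-0.069 to 0.54 leaving out each library), Comp (0.025 with thinned cells, -0.33 to 0.017 leaving out each library) and Matn4 (-0.19 with thinned cells) in hypertrophy-marked cells, Comp in Chrdl2/Meox2-marked cells (-0.20 to 0.56 leaving out each library), and Cilp (-0.45 with thinned cells, -0.11 to 0.30 leaving out each library) and Matn4 (-1.13 to 0.50 leaving out each library) in Sfrp5/Adamtsl2-marked cells. Past-fold ratios of mutant to control that crossed 1 in the 3-month endplate gate were those of Cilp (2.72 without called doublets, 5.29 with thinned cells) and Matn2 (0.949 without marked cells), and the age ratio of Cilp in control endplate cells was 22.4 without called doublets. In other cartilage the age ratio of Matn3 among control cells was 0.936 without the cell richest in Matn3 in each library, added after the data were seen, and that of Cilp2 among mutant cells had no Cilp2 UMI left at 12-16 months without marked cells. In bone/stroma the Comp ratio of mutant to control was 1.80 at 3 months without cells holding Ptprc, Cdh5 or Acta2 UMIs and 0.471 at 12-16 months when each cell counted the same. Counted so, the age ratios there were 1.05 for Comp and 1.20 for Chad among control cells, and 0.519 for Comp among mutant cells without those holding Ptprc, Cdh5 or Acta2 UMIs.

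Few UMIs limited Matn1 and Matn4, with 83 and 205 in all kept cells. Few cells limited the endplate gate of the 12-16-month library labelled control, with 11.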
